A study of Rattus norvegicus with 12 samples.

Results

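The small leucine-rich proteoglycans examined here were Dcn (decorin), Bgn (biglycan), Lum (lumican), Fmod (fibromodulin), Ogn (osteoglycin), Prelp, Aspn (asporin), Omd (osteomodulin), Podn (podocan) and Kera (keratocan), chosen by gene symbol from a family list. Of these 10 genes, 8 had a row among the 12271 genes of the normalized count table, and all 8 passed the filter on low values (a mean normalized count of 10 or more, which 11871 genes met). The expression of Podn and Kera was not analysed here. RNA was sequenced from cardiac fibroblasts of the heart ventricles of P2 Sprague Dawley rats that had been transfected with siRNA, a short RNA that lowers the messenger RNA it matches. The 4 groups of 3 libraries received a pair of universal negative control siRNAs (negative siRNA), a pair against Yap (Yap siRNA), a pair against Wwtr1 (Wwtr1 siRNA), or siRNAs against both (the double knockdown), each at 25 nM, and per the labels were collected 48 hours later. The study's methods can be read as placing collection 48 hours after a medium change that itself followed transfection, so the time since transfection is uncertain. The fibroblasts were grown in serum and were all transfected, so that no group shows unmanipulated cells, and replicates came from separate litters per the study's methods, which do not state that equal numbers mark one litter. The siRNA label of the double knockdown names only the Wwtr1 siRNAs, whereas its title names both. The series design text calls the cells cardiac myocytes, while its title, the sample labels and the study's methods call them cardiac fibroblasts.

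Small leucine-rich proteoglycans are secreted proteins whose leucine-rich repeats form a curved surface that binds collagen fibrils and limits their lateral growth. Several carry chondroitin, dermatan or keratan sulfate chains, and several bind growth factors of the TGF-beta family or receptors on the cell. In the heart they are made mainly by fibroblasts and take part in how a scar is organised. Yap, encoded by Yap1, and its paralog Wwtr1, known as Taz, are coactivators of transcription that act mostly through DNA-bound TEAD proteins.

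The genes of this family lie in clusters in the RefSeq annotation of assembly GRCr8. Dcn, Lum, Kera and Epyc follow each other, as do Ogn, Omd and Aspn, and Optc, Prelp and Fmod. Bgn and Podn have no other family member beside them. RefSeq promoter sequences of the same assembly were matched for 7 of the 10 members (Lum, Fmod, Ogn, Aspn, Omd, Podn and Kera). The 250 bases before each annotated start were searched on both strands for GGAATG (the core of the TEAD motif), TGANTCA (the AP-1 motif) and the interferon response element (GAAA, any 2 bases, GAAA), which do not overlap in the matches found. GGAATG was found in 12.1% of all 33469 promoter windows and in 1 of the 7 members, Ogn, at bases 84 to 79 before the start. TGANTCA (6.34% of all windows) and the interferon response element (3.41%) had no match in these 7 windows. The windows of Ogn, of its neighbour Omd and of Lum are printed because these genes changed or had a near-threshold difference in the double knockdown, with a motif match in capitals. The Ogn window is chr17:15258996-15259245 on the minus strand, that of Omd is chr17:15274871-15275120 on the minus strand and that of Lum is chr7:34245456-34245705 on the plus strand, all in GRCr8.
Ogn: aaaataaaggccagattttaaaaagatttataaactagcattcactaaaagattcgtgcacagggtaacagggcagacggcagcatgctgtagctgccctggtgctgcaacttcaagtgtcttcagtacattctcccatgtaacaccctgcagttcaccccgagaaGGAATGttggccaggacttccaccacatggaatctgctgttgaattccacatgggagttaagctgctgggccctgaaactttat
Omd: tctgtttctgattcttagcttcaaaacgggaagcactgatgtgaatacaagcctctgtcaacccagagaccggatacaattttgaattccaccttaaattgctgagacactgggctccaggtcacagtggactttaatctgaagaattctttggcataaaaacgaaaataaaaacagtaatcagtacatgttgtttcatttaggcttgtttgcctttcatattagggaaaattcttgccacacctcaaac
Lum: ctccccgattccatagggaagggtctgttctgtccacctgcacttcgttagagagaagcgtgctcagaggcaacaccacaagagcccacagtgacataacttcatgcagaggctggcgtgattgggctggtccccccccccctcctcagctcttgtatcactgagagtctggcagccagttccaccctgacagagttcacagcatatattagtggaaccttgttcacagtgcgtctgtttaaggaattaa
A match is a description of the letters and not a test of binding, and no measurement of binding was used here.

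The library totals, recovered as described in the processing section, ran from 33886920 to 41059839 reads. The targeted genes were checked first. Yap1 was 3042, 3776 and 2984 normalized counts with negative siRNA (replicates 1, 2 and 3) and 532, 576 and 625 with Yap siRNA. Wwtr1 was 2364, 2565 and 2280 in the negative siRNA libraries and 524, 550 and 637 with Wwtr1 siRNA. Double knockdown libraries held 713, 739 and 1474 for Yap1 and 818, 731 and 1056 for Wwtr1, so that replicate 3 held more of both messages than the other two. The same library stood apart over all genes, with a chi-square per gene between replicates of 120 and 124 for its pairs and 19.6 to 49.2 for the other pairs within a group. Double knockdown results of the members are therefore given with and without it.

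**Figure D1:**
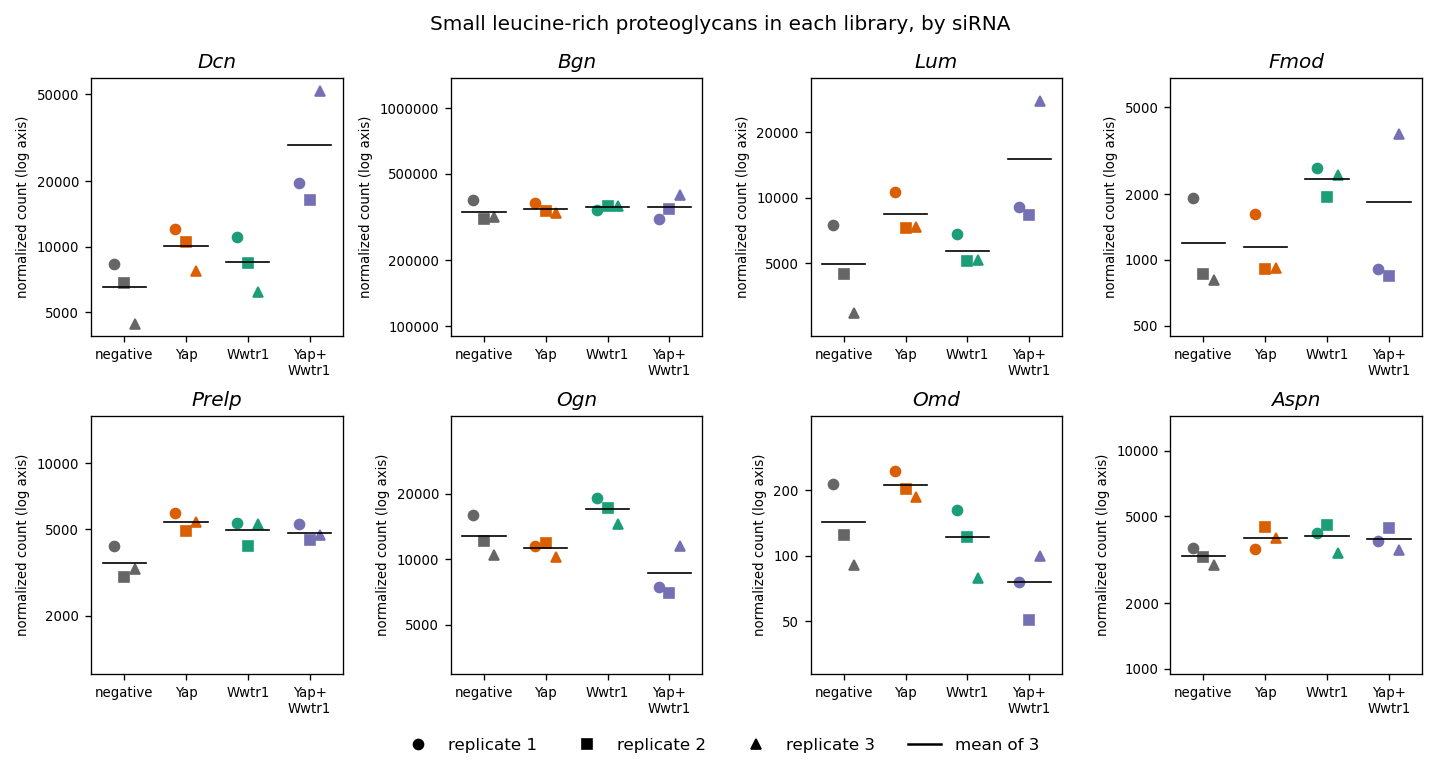
Normalized counts (log axis, a separate range per gene) of the 8 measured small leucine-rich proteoglycans in each of the 12 libraries, with marker shapes for replicate numbers and a bar for the mean of 3. Dcn, Bgn, Lum and Fmod are highest in double knockdown replicate 3, and Bgn stays between 309042 and 397606 throughout.

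Depletion of both coactivators was accompanied by higher Dcn, Lum and Prelp and lower Ogn. Of the 8 members, 4 were called at an adjusted p under 0.05 (limma, adjusted over all genes tested), 3 higher and 1 lower. Of all genes tested, 32.8% were called in this comparison, 17.1% higher and 15.6% lower. The median log2 difference was 0.32 over the members and 0.00 over all genes. Without double knockdown replicate 3, 3 members were called higher and 2 lower (Omd in addition), against 34.2% of all genes, and the median over the members was 0.15 against 0.01 over all genes. With Yap siRNA alone and with Wwtr1 siRNA alone, Prelp was the only member called, against 4.80% and 8.96% of all genes. The median over the members was 0.46 with Yap siRNA and 0.35 with Wwtr1 siRNA.

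Replicate numbers also marked a shared pattern among negative, Yap and Wwtr1 siRNA libraries, as described in the processing section. Fitted with the replicate number as a block over these 9 libraries, 4 members were called with Yap siRNA (16.0% of all genes) and 5 with Wwtr1 siRNA (21.3% of all genes). The same 9 libraries without the block gave 1 member each (Prelp), with 675 and 1315 of all 11871 genes called. The block with all 12 libraries in the fit also gave 1 each, with 874 and 1322 of all genes called. The paired fit thus differs from the fit to all libraries in both the block and the libraries. Its values stand beside the unpaired ones wherever they changed a call. The double knockdown libraries shared only a number with the others, so their values are unpaired.

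**Figure D2:**
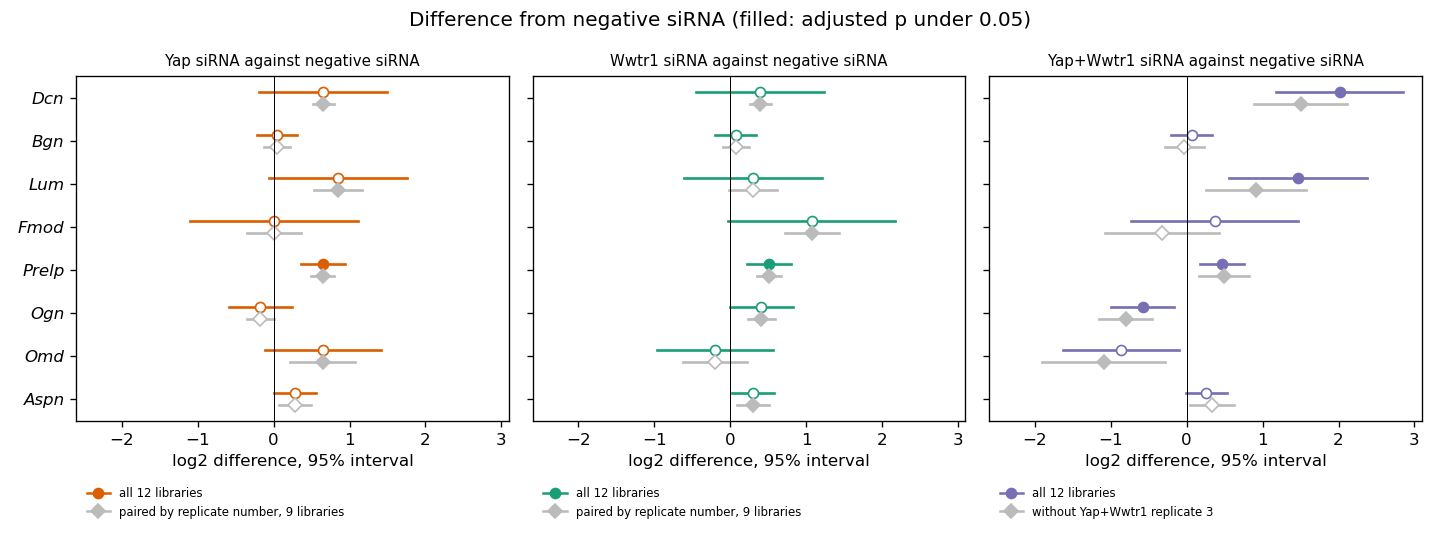
Log2 difference from negative siRNA with its 95% interval (x axis) for each member (y axis) in the 3 knockdowns, on the scale of log2(normalized count + 1). Coloured circles are the fit to all 12 libraries, grey diamonds the fit paired by replicate number (left and centre) or without double knockdown replicate 3 (right), and filled symbols have an adjusted p under 0.05. Prelp is the only filled circle in the single knockdowns, and Fmod changes sign in the right panel without replicate 3.

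The class I members Dcn and Bgn, which carry chondroitin or dermatan sulfate and bind TGF-beta, differed in their response. Dcn was 8338, 6793 and 4425 normalized counts (negative siRNA), 12006, 10459 and 7728 (Yap siRNA), 11025, 8386 and 6179 (Wwtr1 siRNA) and 19496, 16321 and 51879 (double knockdown). Every double knockdown library lay above all other 9 libraries (share of all genes not given), while both single knockdowns overlapped negative siRNA. Double knockdown and negative siRNA groups did not overlap for 44.6% of all genes. The Dcn log2 difference in the double knockdown was 2.01 (SE 0.39, 95% interval 1.17 to 2.86, limma adjusted p 0.00211), a mean 4.48 times that of negative siRNA. Without double knockdown replicate 3 it was 1.50 (SE 0.28, limma adjusted p 0.00182), and Dcn kept its call in all 12 fits that left out 1 library, unlike the other 3 members called.

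In the single knockdowns, Dcn was above the negative siRNA library of the same number in every pair. The ratios were 1.44, 1.54 and 1.75 with Yap siRNA and 1.32, 1.23 and 1.40 with Wwtr1 siRNA. Negative, Yap and Wwtr1 siRNA libraries all had their lowest Dcn in replicate 3 and their highest in replicate 1. Unpaired, the log2 difference of Yap siRNA was 0.65 (SE 0.39, limma adjusted p 0.389). That of Wwtr1 siRNA was 0.40 (SE 0.39, limma adjusted p 0.584). Leaving out 1 library gave 0.40 to 0.85 with Yap siRNA and 0.14 to 0.61 with Wwtr1 siRNA, with no call. Over the 9 libraries without the double knockdown the SE was 0.26 without the block (limma adjusted p 0.174 and 0.364) and 0.06 with it, where both were called (limma adjusted p 0.000119 and 0.00149). An interaction (the log2 difference of the double knockdown less those of both single knockdowns) was 0.97 for Dcn (SE 0.55, 95% interval -0.22 to 2.16, limma adjusted p 0.475), and 0.45 without double knockdown replicate 3.

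Bgn, the closest relative of Dcn, was 377665, 310796 and 315126 normalized counts (negative siRNA), 365294, 336949 and 330322 (Yap siRNA), 341271, 356548 and 353799 (Wwtr1 siRNA) and 309042, 343487 and 397606 (double knockdown). The 4 groups overlapped. Its log2 difference in the double knockdown was 0.06, with a 95% interval from -0.20 to 0.33 (limma adjusted p 0.729), which leaves out a change the size of that of Dcn. It was -0.0323 without double knockdown replicate 3 (limma adjusted p 0.858), so that this library, which held the highest Bgn, set its sign. The intervals with Yap siRNA (-0.22 to 0.31) and Wwtr1 siRNA (-0.20 to 0.34) were as narrow. Bgn took 79.4% to 92.7% of the counts of the 8 members in a library, and 0.846% to 1.10% of all counts, and the sum over the members was 0.913% to 1.39% of all counts. In double knockdown replicate 3, where that sum was highest, the share of Bgn in it was lowest. The sum over the other 7 members was 41703, 30614 and 24968 normalized counts in negative siRNA libraries and 46096, 41468 and 103148 in those of the double knockdown. These are counts per gene, not corrected for length, and the share of a gene in them is not a ratio of molecules.

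**Figure D3:**
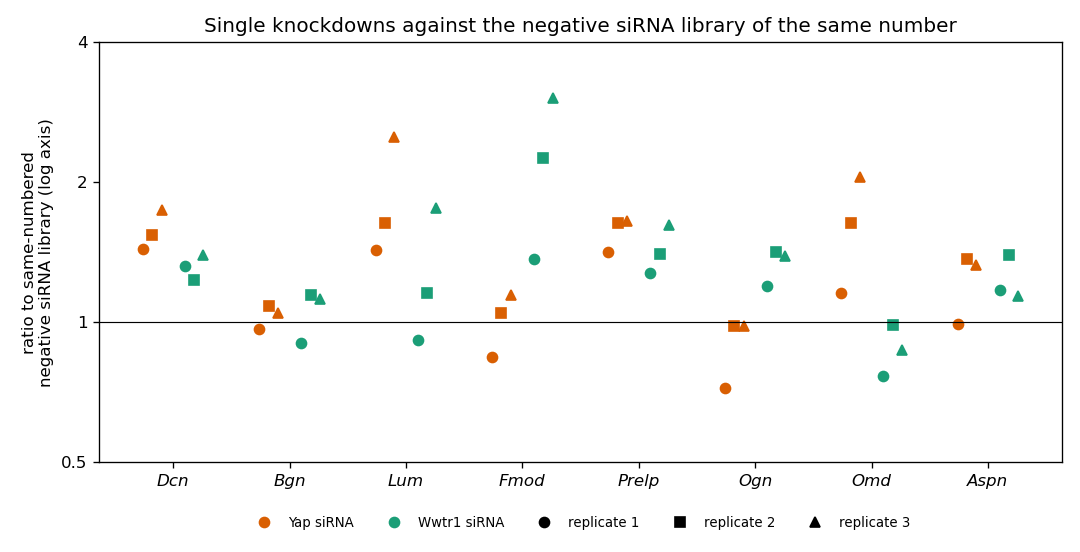
Ratio of each Yap siRNA (orange) and Wwtr1 siRNA (green) library to the negative siRNA library of the same replicate number (y axis, log scale, 1 is no difference) for the 8 members (x axis). Dcn and Prelp lie above 1 in all 6 ratios, Ogn and Omd lie on opposite sides of 1 with the 2 siRNAs, and Fmod lies above 1 in all 3 Wwtr1 siRNA ratios (1.37 to 3.04).

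Of the class II members Lum, Fmod and Prelp, which bear keratan sulfate or an unmodified core and bind fibrillar collagen, Lum resembled Dcn, its neighbour in the genome. Lum was 7467, 4454 and 2957 normalized counts (negative siRNA), 10682, 7282 and 7386 (Yap siRNA), 6840, 5153 and 5207 (Wwtr1 siRNA) and 9037, 8338 and 27679 (double knockdown). All double knockdown libraries lay above those of negative siRNA, groups that did not overlap for 44.6% of all genes. Double knockdown replicate 3 lay well above its replicates 1 and 2. The log2 difference was 1.47 (SE 0.42, limma adjusted p 0.0186) with all libraries and 0.91 (SE 0.30, limma adjusted p 0.0357) without double knockdown replicate 3. The call was lost without negative siRNA replicate 3 (1.15, limma adjusted p 0.0839) and when limma was fitted to these 2 groups alone (limma adjusted p 0.0676). With Yap siRNA, Lum was 1.43, 1.63 and 2.50 times the same-numbered negative siRNA library, a log2 difference of 0.85 that was called only when paired (limma adjusted p 0.290 unpaired and 0.00291 paired). With Wwtr1 siRNA it was 0.30 (limma adjusted p 0.718 unpaired and 0.160 paired), and replicate 1 lay under its negative siRNA library (a ratio of 0.916).

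Prelp was called in all 3 knockdowns, at a similar size in each. It was 4192, 3001 and 3270 normalized counts (negative siRNA), 5945, 4909 and 5390.0 (Yap siRNA), 5352, 4204 and 5295 (Wwtr1 siRNA) and 5258, 4451 and 4679 (double knockdown). All 9 knockdown libraries lay above all 3 of negative siRNA. Groups that did not overlap negative siRNA were found for 26.1% of all genes (Yap siRNA), 32.7% (Wwtr1 siRNA) and 44.6% (double knockdown). The log2 differences of Yap siRNA, Wwtr1 siRNA and the double knockdown were 0.64, 0.51 and 0.47 (SE 0.13 each), with limma adjusted p-values of 0.0208, 0.0337 and 0.0177. Without double knockdown replicate 3 the last was 0.49 (SE 0.15, limma adjusted p 0.0269). Paired, the 2 single differences had limma adjusted p-values of 0.000212 and 0.000603.

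The double knockdown value of Prelp lay under the sum of both single differences. The interaction was -0.69 (SE 0.19, 95% interval -1.09 to -0.28, limma adjusted p 0.109, where 1.03% of all genes were called), with an unadjusted p of 0.00333. It was -0.67 (limma adjusted p 0.144) without double knockdown replicate 3. It was called by DESeq2 on the recovered reads (DESeq2 adjusted p 0.0208, with 4.24% of all genes called). The replicate block over all 12 libraries also called it (limma adjusted p 0.0136, with 1.95% of all genes called). Several fits ended the Prelp calls at the same or a similar size. With no trend the single knockdown calls were lost (limma adjusted p 0.0532 for Yap and 0.0655 for Wwtr1 siRNA), and with the 2 groups alone that of Wwtr1 siRNA was lost (limma adjusted p 0.0562). The Yap siRNA call was lost without negative siRNA replicate 2 (0.54, limma adjusted p 0.0775) or replicate 3 (0.61, limma adjusted p 0.0909) or Yap siRNA replicate 1 (0.58, limma adjusted p 0.0957). The Wwtr1 siRNA call was lost without negative siRNA replicate 2 (0.41) or 3 (0.47) or Wwtr1 siRNA replicate 1 (0.45) or 3 (0.46), with limma adjusted p-values from 0.101 to 0.126. The double knockdown call was lost without negative siRNA replicate 2 (0.37) or 3 (0.43) or double knockdown replicate 1 (0.40), with limma adjusted p-values from 0.0650 to 0.0717.

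Fmod, which binds collagen next to lumican and competes with it, was 1923, 862 and 807 normalized counts (negative siRNA), 1622, 904 and 923 (Yap siRNA), 2630.5, 1943 and 2457 (Wwtr1 siRNA) and 913, 843 and 3763 (double knockdown). The Wwtr1 siRNA libraries all lay above those of negative siRNA and those of Yap siRNA. Wwtr1 and negative siRNA groups did not overlap for 32.7% of all genes, and the share for Wwtr1 against Yap siRNA is not given here. Double knockdown replicates 1 and 2 lay within the range of negative siRNA and replicate 3 above every other library. With Wwtr1 siRNA the Fmod log2 difference was 1.08 (SE 0.50, 95% interval -0.03 to 2.18, limma adjusted p 0.222), and paired it was called (SE 0.16, limma adjusted p 0.00116). It was also called in the fit without double knockdown replicate 3 (limma adjusted p 0.0419, with 1419 of all 11871 genes called). With Yap siRNA the difference was 0.01 (limma adjusted p 0.997 unpaired and 0.986 paired). In the double knockdown it was 0.37 (SE 0.50, limma adjusted p 0.613) with replicate 3 and -0.33 (SE 0.34, limma adjusted p 0.488) without it, so that 1 library decided its direction.

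Ogn, Omd and Aspn, which lie side by side in the genome, did not share one pattern. Ogn, the class III member also called mimecan, was 15996, 12128 and 10420.3 normalized counts (negative siRNA), 11523, 11908 and 10204 (Yap siRNA), 19159, 17161 and 14469 (Wwtr1 siRNA) and 7465, 7037 and 11530.4 (double knockdown). It was thus higher in all Wwtr1 siRNA libraries than in any of Yap siRNA, and the double knockdown overlapped negative siRNA through its replicate 3. The share of all genes with Wwtr1 and Yap siRNA groups apart is not given here. Ogn fell in the double knockdown by 0.58 (log2 scale, SE 0.19, limma adjusted p 0.0360) and by 0.80 without replicate 3 (SE 0.16, limma adjusted p 0.00281). The call was lost without negative siRNA replicate 1 (-0.41) or 2 (-0.61) and without double knockdown replicate 1 (-0.49) or 2 (-0.45), with limma adjusted p-values from 0.0655 to 0.138. It was also lost when the 2 groups were fitted alone (limma adjusted p 0.0909) and with no trend (limma adjusted p 0.0635). With Wwtr1 siRNA the difference was 0.41 (SE 0.19, limma adjusted p 0.216), called when paired (limma adjusted p 0.00454), and the Yap siRNA difference was -0.18 (limma adjusted p 0.665 unpaired and 0.163 paired).

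The Ogn interaction was -0.81 (SE 0.27, 95% interval -1.40 to -0.22, limma adjusted p 0.192). Without double knockdown replicate 3 it was -1.04 (SE 0.21, limma adjusted p 0.0421) and was called, as was 1.35% of all genes. On the log2 scale the double knockdown thus lay under the sum of a positive Wwtr1 siRNA and a slightly negative Yap siRNA difference.

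Omd, a keratan sulfate proteoglycan best known from bone, had the fewest counts of the 8 members. It was 212, 124 and 91.0 normalized counts (negative siRNA), 246, 202 and 186 (Yap siRNA), 163, 122 and 79.3 (Wwtr1 siRNA) and 75.6, 51.0 and 100 (double knockdown). For Omd, all Yap siRNA libraries lay above those of Wwtr1 siRNA and the double knockdown (share of all genes so separated not given). Its double knockdown log2 difference was -0.87 (SE 0.35, 95% interval -1.64 to -0.10, limma adjusted p 0.0781), which missed the threshold, and it was called without double knockdown replicate 3 (-1.10, limma adjusted p 0.0396, with 34.2% of all genes called in that fit) or without negative siRNA replicate 3 (-1.15, limma adjusted p 0.0435, with 23.1% of all genes called). Without negative siRNA replicate 1 it was -0.54 (limma adjusted p 0.275) and without double knockdown replicate 2 -0.62 (limma adjusted p 0.248). DESeq2 on the recovered reads of all libraries also called it (-0.92, DESeq2 adjusted p 0.0434, with 35.4% of all genes called). With Yap siRNA the difference was 0.65 (limma adjusted p 0.341 unpaired and 0.0446 paired), and with Wwtr1 siRNA it was -0.20 (limma adjusted p 0.785 unpaired and 0.504 paired). The Omd interaction was -1.32 (SE 0.50, limma adjusted p 0.250), and -1.54 (limma adjusted p 0.167) without double knockdown replicate 3. No member had a called interaction in the unblocked limma or edgeR fits to all 12 libraries, and 3 of the 8 (Prelp, Ogn and Omd) had an unadjusted limma p under 0.05, against 1663 of all 11871 genes. DESeq2 on the recovered reads called 1 (Prelp, with 4.24% of all genes), as did limma with the replicate number as a block over all 12 libraries (Prelp, -0.69, limma adjusted p 0.0136, with 1.95% of all genes).

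Aspn, a class I member without attached glycosaminoglycan, had a similar small difference in each knockdown. It was 3575, 3253 and 2997 normalized counts (negative siRNA), 3537, 4450 and 3981 (Yap siRNA), 4193, 4543 and 3412 (Wwtr1 siRNA) and 3851, 4427 and 3518 (double knockdown). Each knockdown overlapped negative siRNA. Its log2 differences were 0.28, 0.30 and 0.26 in that order (SE 0.12 in each), with limma adjusted p-values of 0.237, 0.169 and 0.131. Without double knockdown replicate 3 the last was 0.34 (limma adjusted p 0.0698), and the Wwtr1 siRNA difference was called when paired (limma adjusted p 0.0458).

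Whether Yap and Wwtr1 siRNA acted differently on the members was then tested directly. Unpaired and fitted to all libraries, no member was called between Yap and Wwtr1 siRNA, where 8.79% of all genes were, and 2 of the 8 members (Ogn and Omd) had an unadjusted p under 0.05, as did 24.4% of all genes. By DESeq2 on the recovered reads 1 was called (Ogn), against 13.0% of all genes, and by edgeR none was. These shares of the members are near those of all genes. Paired by number, 5 members were called, where 22.6% of all genes were. Dcn (log2 difference 0.25, limma adjusted p 0.0155), Lum (0.55, limma adjusted p 0.0193) and Omd (0.85, limma adjusted p 0.0111) were higher with Yap siRNA. Ogn (-0.59, limma adjusted p 0.000734) and Fmod (-1.07, limma adjusted p 0.00137) were higher with Wwtr1 siRNA.

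The ratios of the same-numbered Yap and Wwtr1 siRNA libraries gave the size of these differences. Fmod with Yap siRNA was 0.617, 0.465 and 0.376 times its level with Wwtr1 siRNA, and Ogn 0.601, 0.694 and 0.705 times. Omd was 1.51, 1.65 and 2.35 times and Lum 1.56, 1.41 and 1.42 times. Dcn was 1.09, 1.25 and 1.25 times, and its unpaired difference ran from 0.04 to 0.46 when 1 library was left out. Prelp (95% interval of the paired log2 difference -0.02 to 0.29), Bgn (-0.20 to 0.14) and Aspn (-0.23 to 0.19) were not called in either fit. The libraries fitted also mattered: fitted to these 2 groups alone, unpaired, Ogn (limma adjusted p 0.0207) and Fmod (limma adjusted p 0.0281) were called, with 7.94% of all genes. Without the double knockdown and without the block, a fit chosen after seeing the data, Ogn alone was called (limma adjusted p 0.0323, with 11.1% of all genes called). With all libraries but double knockdown replicate 3, unpaired, Ogn (limma adjusted p 0.0223) and Fmod (limma adjusted p 0.0432) were called, with 11.9% of all genes.

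**Figure D4:**
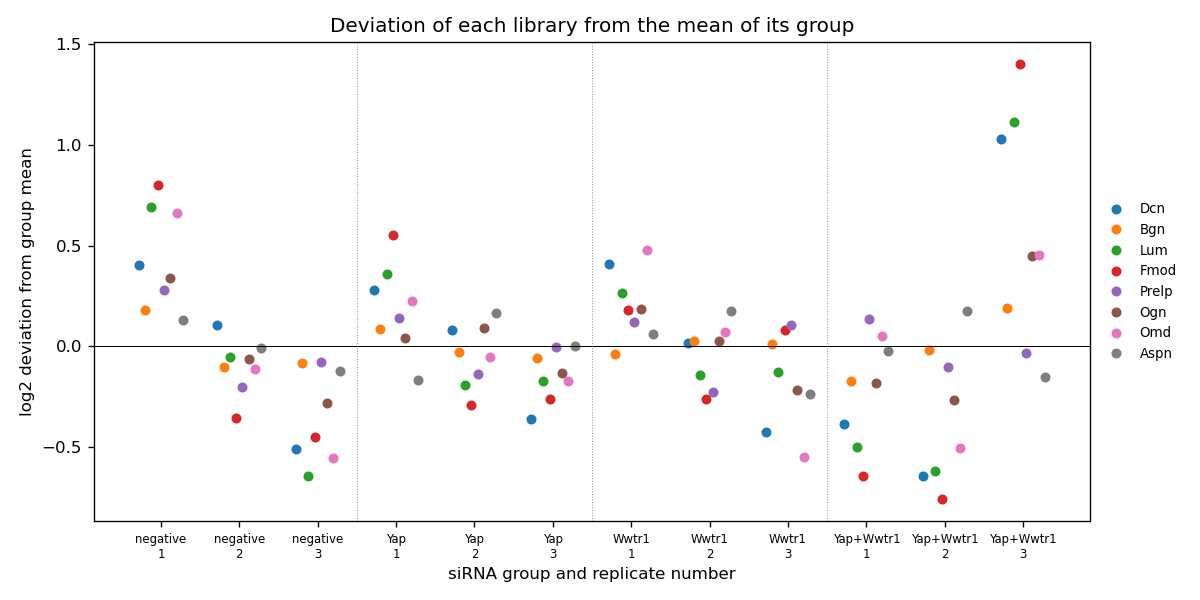
Log2 deviation of each library from the mean of its own group (y axis), by group and replicate number (x axis), with one colour per member. Dcn, Lum, Fmod, Ogn and Omd lie above 0 in replicate 1 of negative, Yap and Wwtr1 siRNA, and Dcn, Lum and Fmod reach 1.03 to 1.40 in double knockdown replicate 3.

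Some of the members varied together between libraries of the same group. Over the 12 libraries, the deviations from the group means correlated between Dcn and Lum (Pearson r 0.93), Dcn and Ogn (0.96), Lum and Fmod (0.97) and Ogn and Omd (0.90), while Aspn (-0.36 to 0.18 with the other members) and Prelp (-0.29 to 0.45) had lower correlations. These correlations rest in part on double knockdown replicate 3 and on libraries that share a replicate number, and are given as a description. Without centring, Dcn and Lum had r 0.93, whereas Dcn and Ogn had -0.30. By the fixed rule, genes with a mean normalized count of 100 or more were ranked by Pearson r over the 12 libraries. Those most like Dcn were Add3, C2 and Zfp503 (r 0.97 each, Spearman rho 0.88 to 0.99). Those most like Lum were Glrx, Fgd5 and Capn6 (r 0.96, 0.96 and 0.96, rho 0.72 to 0.90). Those most like Bgn were Hic1, Qsox1 and Dram2 (r 0.87, 0.87 and 0.86, rho 0.76 to 0.90).

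All 9 fibroblast markers passed the filter on low values, as did all 10 endothelial and all 8 mural markers, so passing does not identify the cells. The sum of the fibroblast markers was 2657970 to 3820460 normalized counts, highest in Yap siRNA replicate 2 and double knockdown replicate 3. In the double knockdown 2 of them were higher (Pdgfra and Postn) and 3 lower (Tcf21, Col1a2 and Vim). Markers of other cells were present too. The sum of 9 measured macrophage markers of 10 was 11910 to 17071 normalized counts with negative siRNA, 10378 to 15580 with Yap siRNA, 7006 to 10726 for Wwtr1 siRNA, and 3923, 7924 and 26811 for the double knockdown, highest in the library in which Dcn, Lum and Fmod were highest. None of these 9 was at 0 throughout a group, and 1 (Cx3cr1) was called lower in the double knockdown. The sum of 9 measured cardiomyocyte markers of 10 was 35156 to 60194 with negative siRNA and 59570 to 77281 in the double knockdown, with 2 called higher. The part of other cells, of incomplete depletion and of replicate number in the proteoglycan values was not tested, and in these bulk libraries fewer cells of a type and less RNA per cell cannot be told apart.

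Interferon-induced genes moved with every knockdown. The sum of the 10 measured genes of 11 was 7414 to 11699 normalized counts with negative siRNA, 24756 to 55769 with Yap siRNA, 19175 to 63819 with Wwtr1 siRNA and 71918 to 86366 in the double knockdown. Of these 10 genes, 10, 9 and 10 were called higher, where 4.80%, 8.96% and 32.8% of all genes were called in either direction. Of the negative siRNA libraries all 3 had Zbp1 at 0. Markers of other cells had fewer calls in the double knockdown: 5 of 10 endothelial genes higher (sum 4255 to 5290 normalized counts against 4553 to 5095 with negative siRNA), 3 of 8 mural genes higher and 2 lower, 1 of 5 mesothelial genes higher and 1 lower, and 1 of 3 tendon or cartilage genes lower (Sox9). Their part in the proteoglycan values was not tested.

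The other members of the family were near the threshold or short of it in limma over all libraries. Of 8 further small leucine-rich proteoglycans, 5 had a row (Epyc, Optc, Chad, Nyx and Tsku) and 4 were tested, none of them called in that fit. In the double knockdown 1 was called lower by DESeq2, under TMM or upper-quartile scaling, and without Yap siRNA replicate 2 or 3 or Wwtr1 siRNA replicate 3, and DESeq2 called 1 higher with Yap siRNA. Their median log2 difference in the double knockdown was -0.34. Epyc, next to Kera in the cluster of Dcn and Lum, had -0.96 (SE 0.35, limma adjusted p 0.0516), and Tsku (tsukushi) had 0.22 (limma adjusted p 0.133).

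Enzymes that build the sugar chains of the proteoglycans changed in both directions in the double knockdown. Of 21 enzymes for the linker and for chondroitin or dermatan sulfate, 8 rose and 5 fell, where 32.8% of all genes were called. The counts were 7 and 5 without double knockdown replicate 3, and 5 and 3 without its replicate 2. Chst7, a chondroitin 6-sulfotransferase, rose by 1.02 on the log2 scale (SE 0.17), Xylt1, which attaches the first sugar to the core protein, rose by 0.83 (SE 0.18), and Ust, a uronyl sulfotransferase, fell by 0.86 (SE 0.22). Dse and Chst14, which make dermatan sulfate, fell by 0.38 and 0.32, while Dsel of the same list was not called (0.27, limma adjusted p 0.191). With Wwtr1 siRNA 1 rose and 4 fell, where 8.96% of all genes were called. That count of 5 was 3 without negative siRNA replicate 1 or 3 or any 1 Wwtr1 siRNA library. Paired it was 8 (4 higher and 4 lower), where 21.3% of all genes were called. With Yap siRNA limma called none over all libraries and DESeq2 called 1. Paired, 4 enzymes were higher and 2 lower, where 16.0% of all genes were called. Among 5 keratan sulfate enzymes, 3 rose and 1 fell (2 and 1 without double knockdown replicate 3, and 1 and 1 without negative siRNA replicate 2). Chst1, a keratan sulfate sulfotransferase, was 264, 198 and 211 normalized counts in negative siRNA libraries and 764, 973 and 739 in those of the double knockdown (log2 difference 1.88, standard error 0.19, limma adjusted p 3.70e-05). B3gnt7 rose by 0.62 and B4galt1 fell by 0.57. The B3gnt7 call was lost without any 1 of the negative siRNA libraries or without double knockdown replicate 1 or 2 (0.48 to 0.66, limma adjusted p 0.0507 to 0.118).

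The partners of the proteoglycans also split. Of 8 fibril collagen genes measured, 1 rose and 3 fell in the double knockdown, where 32.8% of all genes were called. Col14a1, a fibril-associated collagen, was 56859, 52011 and 61136 normalized counts in negative siRNA libraries and 25938, 21621 and 33569 in those of the double knockdown (log2 difference -1.09, standard error 0.15, limma adjusted p 0.000239). Col5a3 rose by 0.95, and by 1.48 with Wwtr1 siRNA, while Col1a2 fell by 0.43. The Col1a2 call was lost with the 2 groups alone (limma adjusted p 0.111), with a pseudocount of 10 (limma adjusted p 0.0503) and without any 1 of the negative siRNA libraries or without double knockdown replicate 1 or 2 (-0.44 to -0.35, limma adjusted p 0.0644 to 0.116). Of 14 ligands and receptors, 4 rose and 4 fell. Tgfb3, a growth factor that decorin and biglycan bind, was 39961, 35120.1 and 56397 normalized counts in negative siRNA libraries and 17026, 18267 and 12382 in those of the double knockdown (log2 difference -1.45, standard error 0.21, limma adjusted p 0.000355). Ccn2 fell by 1.85 and Kdr rose by 1.79. With Yap siRNA 3 were called lower in limma over all libraries (Tgfb2, Tgfb3 and Ccn2). That count was 1 without negative siRNA replicate 1 or 2, and 0 without negative siRNA replicate 3, Yap siRNA replicate 1 or 2 or Wwtr1 siRNA replicate 2, or with no trend. With Wwtr1 siRNA the same fit called none, DESeq2 and each fit without 1 double knockdown library called 1 higher, and the 2 groups alone gave 2 higher. Paired, 4 were higher and 4 lower, where 21.3% of all genes were called. With double knockdown replicates 1 and 2 kept in that fit, 1 was higher and 4 lower.

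Of 9 proteases known to cut these proteins, 3 rose in the double knockdown and none fell, which is near the 32.8% of all genes called. Adamts4 was 272, 269 and 228 normalized counts in negative siRNA libraries and 932, 885 and 1138 in those of the double knockdown (log2 difference 1.93, standard error 0.16, limma adjusted p 1.30e-05), Mmp2 rose by 0.85 and Mmp14 by 0.42. Of 15 other proteoglycan core proteins 4 rose and 3 fell, beside the same share of all genes. Prg4, the lubricin of joint surfaces, was 78.0, 26.0 and 55.8 normalized counts in negative siRNA libraries and 861, 724 and 1981 in those of the double knockdown (log2 difference 4.44, standard error 0.43, limma adjusted p 3.19e-05), highest in replicate 3. Tgfbr3 (betaglycan) rose by 1.92, and Gpc4 (a glypican) fell by 1.19. Paired by number, the single knockdowns called more genes of several lists, as of all genes (16.0% with Yap siRNA and 21.3% with Wwtr1 siRNA). These were 2 collagens (both higher) with Yap siRNA and 5 (1 higher, 4 lower) with Wwtr1 siRNA. In the same order they were 3 and 2 proteases, 5 and 7 other core proteins, and 1 and 3 keratan sulfate enzymes. Each also had 1 other small leucine-rich proteoglycan. The counts of collagens, ligands and receptors, proteases and other core proteins in the double knockdown were the same without double knockdown replicate 3, and no call rate over a list was compared with other genes beyond the shares given above. The 18 genes named from these lists for their double knockdown difference kept their direction and call in that fit. Chst1 was 1.95, Col14a1 -1.26, Tgfb3 -1.28, Adamts4 1.82 and Prg4 3.998 there, and Ust moved from -0.86 to -0.62.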

How the data were processed

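RNA was measured in 12 libraries of neonatal rat cardiac fibroblasts, 3 in each of 4 siRNA groups taken from the sample titles. The authors trimmed reads with Trim Galore 0.6.5, aligned them to rn6 with HISAT2, estimated abundance with StringTie and normalized with DESeq2. The deposited signal values are counts divided by a size factor per library. In each library they were whole multiples of 1 step (100% of 147252 values within 0.01 of a step), which gave recovered totals of 33886920 to 41059839. What 1 unit counts (a read, a mate or a value derived from coverage) is not given in the sources used here. Fold changes and p-values of the authors' own comparisons were not used, and no per-sample column was left unmatched.

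The test was limma 3.58.1 (R 4.3.3, eBayes with trend, two-sided) on log2(normalized count + 1) over all libraries, with no covariate, for genes with a mean of at least 10. Differences on this scale understate changes of low genes. In 5 comparisons, p-values were adjusted by Benjamini and Hochberg across the 11871 genes that passed, and called under 0.05. The steps were tested on simulated data. Alternatives were other pseudocounts, filters and scalings, edgeR 4.0.16 and DESeq2 1.42.0 on recovered reads, no trend, the compared groups alone, a replicate block and leaving out each library.

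The members, lists of related genes and naming rule were chosen with earlier results of these data known. The text names all members, the targeted genes, the 3 genes of each related list with the largest called difference in the double knockdown, and the 3 genes most correlated with Dcn, Bgn and Lum. Other genes named (Epyc, Tsku, Dse, Dsel, Chst14, Tgfb2, Pdgfra, Postn, Tcf21, Vim, Cx3cr1, Zbp1 and Sox9) were chosen after their values were seen. Deviations from group means of same-numbered libraries correlated at 0.104 to 0.276 in all 9 pairs among negative, Yap and Wwtr1 siRNA, above the limit of 0.1, and at -0.127 to 0.180 with the double knockdown. By this limit the numbers pair the first 3 groups. Replicates came from separate litters, but no source used here says that a number marks one litter. Coordinates are those of GRCr8 sequence tables, not of rn6.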

Additional observations from a re-analysis of the deposited data

Results flagged for a closer look

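Ogn and Omd moved in opposite directions with the 2 single knockdowns in every same-numbered pair of libraries. The share of all genes with such a sign pattern is not given here, and both siRNAs were set against the same negative siRNA libraries. Ogn with Yap siRNA lay under the negative siRNA library of the same number in 3 of 3 pairs (mean log2 difference -0.177, ratios 0.720, 0.982 and 0.979) and above it with Wwtr1 siRNA in 3 of 3 (mean 0.412, ratios 1.20, 1.42 and 1.39). Omd did the reverse, above with Yap siRNA in 3 of 3 (mean 0.647, ratios 1.16, 1.63 and 2.05) and under with Wwtr1 siRNA in 3 of 3 (mean -0.198, ratios 0.766, 0.988 and 0.871). The fitted Omd difference with Wwtr1 siRNA turned positive without negative siRNA replicate 1 (0.13) or Wwtr1 siRNA replicate 3 (0.0766). The difference between the siRNAs was tested as Yap siRNA against Wwtr1 siRNA. Unpaired over all libraries, the limma adjusted p was 0.0796 for Ogn and 0.162 for Omd, where 8.79% of all genes were called. Paired by number it was 0.000734 and 0.0111, where 22.6% of all genes were called. Ratios of 0.979 to 0.988 are near 1, and the Yap siRNA effect on Ogn and the Wwtr1 siRNA effect on Omd were not called in either fit. Both genes are neighbours in the genome and both were lower in the double knockdown without its replicate 3 (34.2% of all genes called in that fit).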

How the results depend on the processing

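Over the 9 negative, Yap and Wwtr1 siRNA libraries, the replicate block changed counts of members called from 1 to 4 with Yap siRNA, from 1 to 5 with Wwtr1 siRNA and from 1 to 5 between them, where all 12 libraries without a block gave 1, 1 and 0. With all 12 libraries the block called 1 interaction (Prelp) in place of 0 and changed no other member count. Without double knockdown replicate 3 and with the block, chosen after seeing the data, the counts were 3, 5, 5 and 4 (interaction: Fmod, Ogn, Prelp and Omd). No trend gave 0 and 0 members in the single knockdowns. The compared groups alone gave 0 with Wwtr1 siRNA, 2 in the double knockdown (Lum and Ogn lost) and 2 between the single knockdowns. DESeq2 gave 1 between the single knockdowns and 1 interaction, and the 9 libraries without a block were also chosen after seeing the data. Leaving out 1 library gave 0 to 1 members with Yap siRNA, 0 to 2 with Wwtr1 siRNA, 2 to 5 in the double knockdown, 0 to 2 between the single knockdowns and 0 to 1 interactions. Other alternatives left these counts within 1.5 times. Over all genes, 570 were called with Yap siRNA against 1013 by DESeq2, 294 without trend, 874 with the block on all libraries and 111 to 341 where leaving out a library moved the count over 1.5 times. Between the single knockdowns 1044 became 434 to 669 in such fits, with Wwtr1 siRNA 1064 became 548 to 695, and 122 interactions became 503 (DESeq2), 60 (no trend), 231 (block) and 31 to 79. The paired counts were 1904, 2527 and 2680, or 1639, 2200 and 2296 with the double knockdown replicates 1 and 2 in the fit (490 interactions).

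Directions turned only for differences that were not called. The Fmod difference with Yap siRNA became -0.00159 (TMM), -0.0165 (upper quartile), -0.0637 (edgeR) and -0.0585 (DESeq2). In the double knockdown with the block and without replicate 3, Fmod became -0.43, Bgn -0.0531 and the Lum interaction -0.39. Leaving out 1 library at a time gave, with Yap siRNA, -0.27 to 0.41 (Fmod) and -0.00470 to 0.14 (Bgn), with Wwtr1 siRNA, -0.47 to 0.13 (Omd) and -0.0213 to 0.65 (Lum), and in the double knockdown, -0.33 to 0.77 (Fmod) and -0.0323 to 0.15 (Bgn), both lowest without replicate 3. Between the single knockdowns the ranges were -0.14 to 0.0705 (Aspn) and -0.0711 to 0.00148 (Bgn), and for the interaction -0.24 to 0.64 (Lum) and -0.15 to 0.0310 (Bgn). The cause was not tested. With 3 libraries a group, calls near the threshold rest on single libraries, and Omd has the fewest counts.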
